A study of Caenorhabditis elegans with 2 samples.

Results

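Molting and epidermal transcription factor genes were examined for chromatin occupancy by CEH-32, a homeodomain protein of the sine oculis family, in the nematode Caenorhabditis elegans. The set was a given list of 9 genes, all of which were found among 19973 nuclear protein-coding genes: myrf-1, myrf-2, nhr-23, nhr-25, grh-1, bed-3, blmp-1, elt-1 and elt-3. A peak was counted for a gene when its summit lay within the gene or up to 5 kb upstream of any of its transcript starts. The genes were chosen by the peaks found near some of them in these same lists, so their counts and signals are a description and no test was made on them.

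The worms were of strain OP516, which carries the unc-119(tm4063) III mutation and the transgene wgIs516, a stable insertion that expresses CEH-32 with GFP and FLAG at its C terminus. Whole hermaphrodites were taken at the L4 larval stage, 52 hours after larvae that hatched and starved as L1 were synchronised. Chromatin was sonicated and precipitated with an antibody against GFP in 2 biological replicates from separate biosamples, which form 1 group, so conditions could not be compared. The assay reads all tissues of the animal together, so binding in few cells and weak binding in many cells cannot be told apart, and the control library was not analysed here.

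Larvae of C. elegans grow through repeated molts, in which the epidermis builds a new cuticle under the old one and the old one is shed. The genes examined encode transcription factors known from this programme. MYRF-1 and MYRF-2 are membrane-bound proteins that cut themselves, after which the N-terminal fragment enters the nucleus. NHR-23 and NHR-25 are nuclear receptors required for molting, GRH-1 is the Grainyhead factor of the epidermal barrier, BED-3 and BLMP-1 are zinc finger proteins, and ELT-1 and ELT-3 are GATA factors of epidermal fate.

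CEH-32 peaks lay in the windows of myrf-1, myrf-2, grh-1 and nhr-23, and the pooled list placed none at nhr-25, bed-3, blmp-1, elt-1 or elt-3. The strongest pooled peak lay 359 bp upstream of the start of myrf-1. It was the only peak of these genes in the authors' thresholded list, called optimal here. The next lay inside myrf-2, 134 bp upstream of an internal transcript start, and fell just short of that list. The sequences under those 2 summits are printed below with those of the other 2 MYRF summits that carried GAGAGA, the hexamer that was most frequent in the optimal list among those searched. Each is the plus strand of build ce11 from 50 bp before to 50 bp after the summit, with any GAGAGA or its reverse complement TCTCTC in capitals.

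myrf-1, upstream summit at chrII:10502850-10502950: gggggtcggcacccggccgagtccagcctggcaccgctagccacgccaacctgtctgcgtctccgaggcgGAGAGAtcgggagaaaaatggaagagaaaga
myrf-1, distal upstream summit at chrII:10504967-10505067: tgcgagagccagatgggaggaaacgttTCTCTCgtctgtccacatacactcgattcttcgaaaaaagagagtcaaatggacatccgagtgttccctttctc
myrf-2, internal promoter summit at chrX:10188554-10188654: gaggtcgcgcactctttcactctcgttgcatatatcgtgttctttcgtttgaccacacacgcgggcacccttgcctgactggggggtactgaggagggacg
myrf-2, first intron summit at chrX:10192224-10192324: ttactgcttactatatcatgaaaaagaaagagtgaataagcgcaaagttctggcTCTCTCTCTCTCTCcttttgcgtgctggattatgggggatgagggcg

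The upstream myrf-1 window held 1 GAGAGA and had a GC content of 64.4%. The internal myrf-2 window held none and had a GC content of 57.4%. The run of repeats in the myrf-2 intron counted as 5 overlapping matches, but the peak over it was weak, with a rank of 9791 among the pooled peaks. None of these windows overlapped an annotated untranslated region.

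Peaks came as lists with a signal for every peak, a measure of its strength from the authors' peak caller. Relaxed lists, which hold weak peaks and background, had 14069 peaks in replicate 1, 14710 in replicate 2 and 10485 on pooled replicates. The optimal list held the 412 strongest pooled peaks. Signal has its own scale in each list, so a value is read against the lowest of its list, which was 27.1 in the pooled list, 81.6 in the optimal list, 12.7 in replicate 1 and 16.2 in replicate 2. At the tagged protein's own locus, the ceh-32 window held 14 pooled peaks, of which 5 were optimal, with a highest signal of 359. The inserted transgene encodes the same protein and the control library was not analysed. Whether these peaks reflect binding was therefore not tested, and they are no check of the assay.

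The 9 genes held 20 pooled peaks. Of these, 8 lay at grh-1, 7 at myrf-1, 4 at myrf-2 and 1 at nhr-23. Their median signal was 40.0, beside 33.5 over the 10461 nuclear pooled peaks, and 14 of the 20 lay above that value. By position, 15 summits lay in introns, 4 upstream and 1 in coding sequence. The upstream myrf-1 peak and the strongest myrf-2 peak had a −log10 q of 2.18, where q is the caller's adjusted error rate and 0 stands for no evidence. The other 18 had values from 0.0179 to 0.954, so these are weak peaks by the caller's own measure. For 17 summits the nearest protein-coding start was that of the gene itself. For the other 3 it was that of ZK666.12, arrd-28 or Y48G8AR.8.

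**Figure D1:**
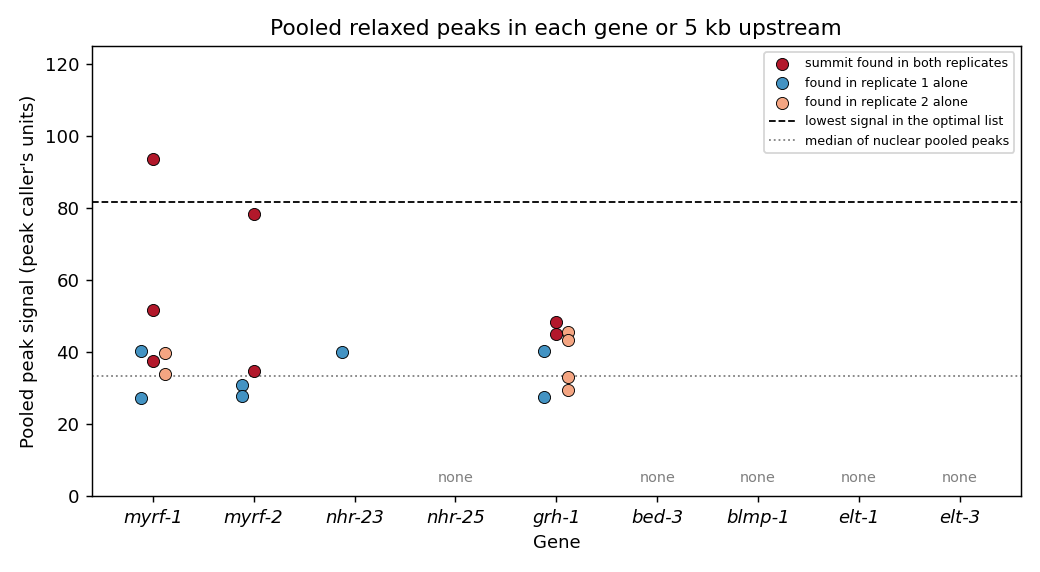
Signal of each pooled peak, in the peak caller's units, by gene, with colour showing the replicate lists that held a summit within 100 bp. One myrf-1 peak lies above the lowest optimal signal of 81.6 (dashed), the strongest myrf-2 peak lies just below it, and 5 genes have no pooled peak.

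Pooled peaks near a gene are common, and the share over all genes sets the scale for these counts. A pooled peak was found for 4 of the 9 genes, beside 47.0% of all nuclear protein-coding genes, so the list as a whole stood near the background. An optimal peak was found for 1 of the 9, beside 3.19% of all genes. In the promoter alone, from 1000 bp upstream to 500 bp downstream of a start, 1 of the 9 had an optimal peak, beside 1.41% of all genes. A pooled peak with a summit within 100 bp in both replicates was found for 3 of the 9, beside 17.0% of all genes.

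The windows of these genes were long, with a median of 10.6 kb and a range of 10.3 to 18.4 kb, beside a median of 7.03 kb over all genes. Among the 2427 genes with windows in that range, 68.4% had a pooled peak, 4.99% an optimal peak and 27.2% a pooled peak in both replicates. The share among the 9 genes was 44.4%, below that of genes of like length. Peaks were unevenly spread within the set. At least 4 pooled peaks were found for 3 genes, beside 4.16% of all genes, a share not computed among genes of like length. At least 7 were found for grh-1 and myrf-1, beside 0.461% of all genes and 1.19% of those of like length. These last limits and the length range were chosen after the counts were seen, and 32 genes had more pooled peaks than grh-1, up to 18.

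myrf-1 (WBGene00004134; II, 10496987 to 10502541, minus strand) has 1 annotated transcript. Its window held 7 pooled peaks, 8 in replicate 1 and 7 in replicate 2. The pooled summits spanned 6624 bp around the start, and the next pooled summits outside the window lay 39266 bp below it and 17376 bp above it. The 7 peaks stood at 0.663 peaks per kb, beside 0.104 per kb for nuclear pooled peaks over the genome. The 50 kb on each side of the window held 23 more, the most around any of the 9 genes, so the wider region was also rich in peaks.

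The optimal myrf-1 peak covered II, 10502690 to 10503109, with its summit at 10502900. Its signal was 93.6 in the pooled list, at rank 298, with a −log10 q of 2.18. Its signal was 32.7 at rank 819 in replicate 1 and 56.0 at rank 234 in replicate 2. Both replicates placed a summit within 18 bp of the pooled one, and the peak stood higher in the order of replicate 2. The summit also lay in an exon of F59B10.7 (WBGene00195882), a noncoding RNA on the plus strand, 248 bp from its start, so the peak is not assigned to one gene over the other.

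A second upstream peak, 2476 bp from the myrf-1 start, had a pooled signal of 51.7 at rank 1272. Its signal was 23 in replicate 1 and 29.2 in replicate 2, with summits 78 bp and 0 bp from the pooled one. The third peak held by both replicates lay 2526 bp into the gene, in a short intron, with a pooled signal of 37.6. Replicate 1 gave it 13.1, close to the lowest of that list and at a summit in coding sequence, and replicate 2 gave 20.5. Replicate 1 also had a stronger peak nearby, with 23.7 in coding sequence 2693 bp into the gene. That peak had no pooled summit within 100 bp.

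The other 4 myrf-1 peaks were each held by 1 replicate. Intron peaks 724 bp and 1309 bp from the start had pooled signals of 40.3 and 39.8, the former from replicate 1 with 34.1 and the latter from replicate 2 with 36.4. A peak 1636 bp upstream had a pooled signal of 33.9 and came from replicate 2. The weakest, at 27.3, lay in coding sequence 4148 bp from the start, was held by replicate 1, and was nearer to the start of ZK666.12, at 2181 bp.

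myrf-2 (WBGene00008999; X, 10180940 to 10194377, minus strand), the paralog of myrf-1, has 11 transcripts from 10 starts. Its 18.4 kb window held 4 pooled peaks, 6 in replicate 1 and 3 in replicate 2. The strongest covered X, 10188394 to 10188813, with a pooled signal of 78.3 at rank 450. Its −log10 q of 2.18 equalled that of the optimal myrf-1 peak despite the lower signal, so that value does not order these peaks. In replicate 1 the myrf-2 peak had a signal of 36.9 at rank 597, and in replicate 2 a signal of 41.9 at rank 546. The ranks were close in both replicates, with summits 15 bp and 0 bp from the pooled one. It is the strongest peak of these genes outside the optimal list, as the upstream myrf-1 peak is the one inside it. Its summit lay in an intron of the longer transcripts and 134 bp upstream of the start of F21A10.2a.2.

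The second myrf-2 peak in both replicates lay 282 bp upstream of another internal start, that of F21A10.2a.6, with a pooled signal of 34.8. Replicate 1 gave it 15.2 and replicate 2 gave 23.9. The remaining 2 came from replicate 1, with pooled signals of 30.8 and 27.7. The first of these was nearer to arrd-28, whose start was 1701 bp away. The other was the GAGAGA-rich summit printed above, 1823 bp from the nearest start. In the pooled list, each MYRF gene thus had its strongest peak shortly upstream of a transcript start. This was the sole start of myrf-1 and an internal start of myrf-2. In replicate 1 the strongest myrf-1 peak instead lay in an intron 823 bp into the gene, with a signal of 34.1 at rank 739. The upstream myrf-1 peak followed in that replicate, with 32.7 at rank 819.

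**Figure D2:**
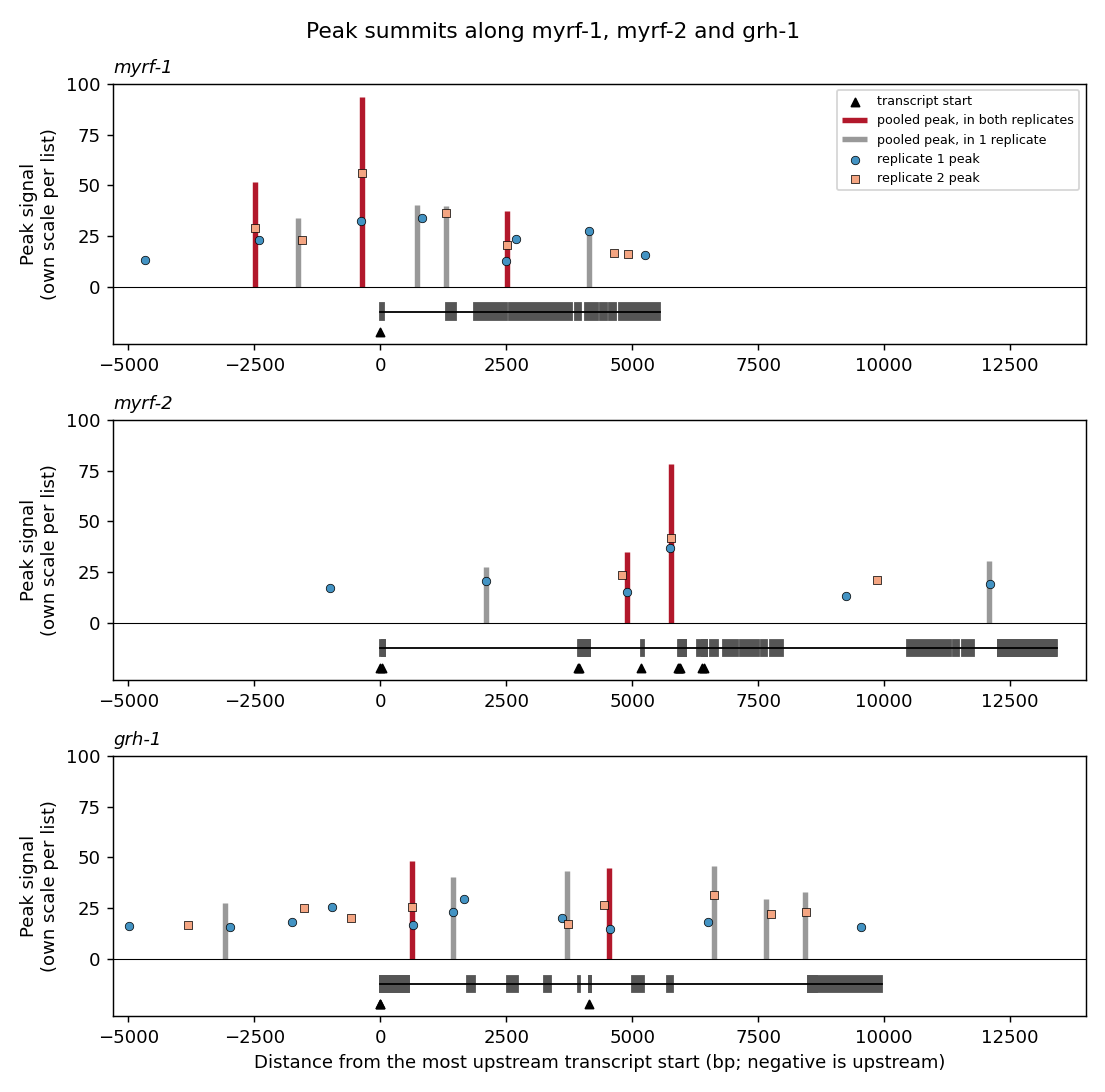
Peak summits along myrf-1, myrf-2 and grh-1 by distance in bp from the most upstream transcript start, with peak signal on each list's own scale (bars, pooled peaks; points, replicate peaks), exons as boxes and starts as triangles. The tallest bars stand at 93.6 upstream of myrf-1 and 78.3 at an internal start of myrf-2, and the grh-1 bars reach no higher than 48.5.

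grh-1 (WBGene00001707; I, 1258201 to 1268155, minus strand) had the most pooled peaks, 8 in a window of 15.0 kb, with 11 in replicate 1 and 9 in replicate 2. None was optimal. The strongest, 638 bp into the gene, had a pooled signal of 48.5 at rank 1539, with 16.7 in replicate 1 and 25.8 in replicate 2. A second peak in both replicates, 384 bp from an internal start, had a pooled signal of 44.9, with 14.8 in replicate 1 and 26.7 in replicate 2. Its replicate summits lay 28 bp and 99 bp from the pooled one, and were not within 100 bp of each other. In replicate 1 the strongest and the second peak ranked 6424 and 9347 among 14069 peaks. Of the 11 replicate 1 summits at grh-1, 1 lay within 100 bp of a replicate 2 summit when the replicates were compared directly.

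The other 6 grh-1 peaks had pooled signals from 27.6 to 45.7, with 4 from replicate 2 and 2 from replicate 1. Of the 8 summits, 7 lay in introns and 1 lay 3073 bp upstream, 288 bp from the start of Y48G8AR.8. The pooled grh-1 peaks thus formed a series of similar signals with a median of 41.8. The strongest grh-1 peaks of replicate 1 had no pooled summit within 100 bp. They had signals of 29.5, 1654 bp into the gene, and 25.8, 961 bp upstream. At the MYRF genes the strongest pooled peak stood further above the second. The signals were 93.6 against 51.7 for myrf-1 and 78.3 against 34.8 for myrf-2. For myrf-1 this held in replicate 2, with 56.0 against 36.4. It did not hold in replicate 1, where an intron peak had 34.1 and the upstream peak 32.7. The region beyond the grh-1 window also held peaks, the nearest 531 bp below it and 542 bp above it.

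nhr-23 (WBGene00003622; I, 7214745 to 7221299, plus strand), which encodes the ROR-type receptor needed at each molt, had 1 pooled peak. It lay in an intron 689 bp from a start, with a pooled signal of 40.1 at rank 2891. Replicate 1 held it with 17.3 at rank 5745, while the one replicate 2 peak in the window, with a signal of 23.2, had its summit at 7217666, not within 100 bp of the pooled summit at 7217473. These 2 replicate peaks lay in the same intron without a shared summit. Replicate 1 had 3 more peaks in the window, with signals of 13.6 and 12.8 upstream, at 1827 bp and 1175 bp from a start, and 15.4 in the 5′ untranslated region. None of these was in the pooled list. nhr-25 (WBGene00003623; X, 13008493 to 13013964, plus strand), of the FTZ-F1 family, had no peak in any list. The nearest pooled summit lay 13083 bp from the gene.

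The zinc finger genes had no pooled peak. bed-3 (WBGene00009133; IV, 9916524 to 9921967, plus strand) had none in replicate 1 and 3 in replicate 2, with signals of 18.7, 20.5 and 18. A pooled summit with a signal of 28.5 lay 412 bp past its end, outside the window. blmp-1 (WBGene00003847; I, 10409302 to 10414773, plus strand) had 2 peaks in each replicate, with signals of 19.7 and 14.3 in replicate 1 and 19.0 and 18.4 in replicate 2. None of its summits was shared between replicates. The nearest pooled summit lay 7577 bp from the gene, with a signal of 35.6, and would count with a window of 10 kb upstream.

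The GATA factor genes were the poorest in peaks with nhr-25. elt-1 (WBGene00001249; IV, 9614995 to 9620280, plus strand), which specifies epidermal fate in the embryo, had 2 peaks in replicate 1, with signals of 12.9 and 15.9, and none in replicate 2. elt-3 (WBGene00001251; X, 13934874 to 13941216, plus strand), an epidermal factor that acts later, had none in replicate 1 and 1 in replicate 2, with a signal of 16.6. The elt-1 peaks ranked 13586 and 7536 in replicate 1 and the elt-3 peak 13746 in replicate 2, so the peak of 15.9 lay in the middle of its list and the others near the end. The nearest pooled summits lay outside the windows, 4421 bp from elt-1 with a signal of 28.9 and 1491 bp from elt-3 with a signal of 43.2.

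**Figure D3:**
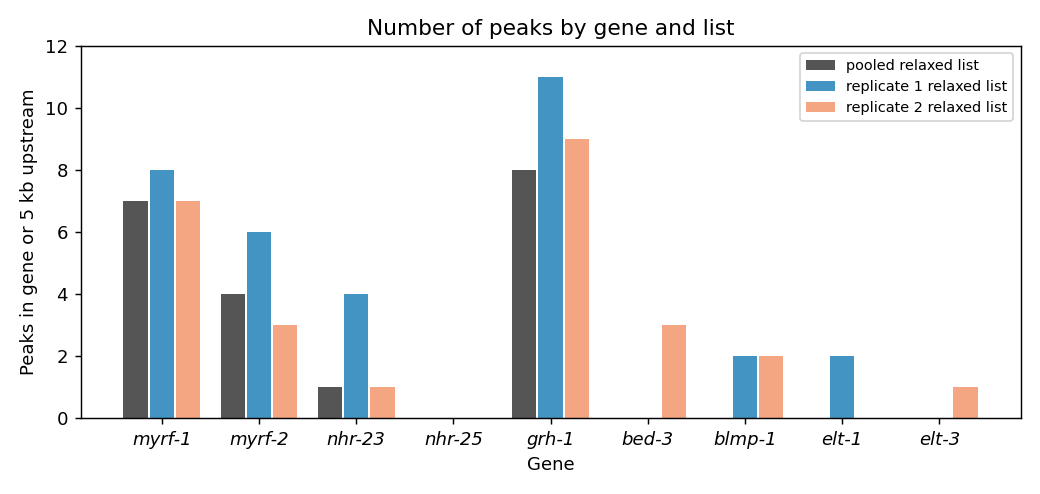
Number of relaxed peaks in each gene or 5 kb upstream, for the pooled list and each replicate list. grh-1, myrf-1 and myrf-2 together hold most of the peaks in every list, and bed-3, blmp-1, elt-1 and elt-3 have at most 3 in a replicate and none in the pooled list.

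The replicates held more of the genes than the pooled list. In replicate 1, 6 of the 9 had a peak, beside 58.8% of all genes, and in replicate 2 it was 7 of 9, beside 57.6%. The windows of the 9 genes were long, and no share among genes of like length was computed for the replicate lists. Replicate 1 held 33 peaks in the windows of the 9 genes and replicate 2 held 26. Of the 20 pooled peaks, 7 had a summit in both replicates, 7 in replicate 1 alone and 6 in replicate 2 alone. The 7 make 35.0% of the peaks of these genes, beside 24.2% of nuclear pooled peaks, and lay at myrf-1 (3), myrf-2 (2) and grh-1 (2).

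**Figure D4:**
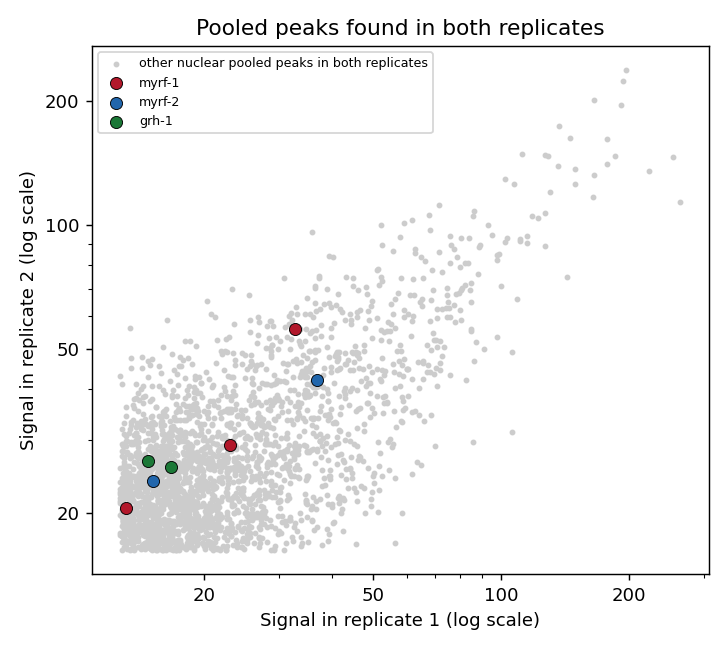
Signal in replicate 2 against signal in replicate 1, both on log scales, for nuclear pooled peaks with a summit within 100 bp in both replicates. The upstream myrf-1 peak (32.7 and 56.0) and the internal myrf-2 peak (36.9 and 41.9) have the highest signal in both replicates among the 7 peaks of these genes shown.

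The sequence under the 20 summits had a median GC content of 38.1%, beside 38.6% for nuclear pooled peaks and 50.5% for nuclear optimal peaks. The range was 24.8% to 67.3%, and the highest values belonged to summits at grh-1 near Y48G8AR.8, at nhr-23 and upstream of myrf-1. Motifs were searched on both strands within 50 bp of the summit. GAGAGA was found at 3 summits (15.0%), all at the MYRF genes, beside 9.89% of nuclear pooled and 28.1% of nuclear optimal summits. TGATAA, the GATA-type motif, was found at 1 summit (5.00%), in the short intron of myrf-1, beside 7.01% and 2.58%. Neither TGATAC, a motif known for sine oculis proteins, nor TAATTA, a homeodomain core, was found at any of the 20 summits. Over nuclear pooled peaks the shares were 2.85% for TGATAC and 6.35% for TAATTA, and over nuclear optimal peaks 3.09% and 1.55%. A match is a run of letters and not evidence of a site.

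Other genes of molting and the epidermis were counted in the same way, with 38 protein-coding genes listed by role. A pooled peak was found for 26 (68.4%) and an optimal peak for 1 (2.63%), at a median window of 9.56 kb. The shares were 47.0% and 3.19% over all genes and 68.4% and 4.99% among genes with windows of 10.3 to 18.4 kb. That range was set by the windows of the transcription factor genes examined above. The windows of the 38 genes ran from 6.89 to 25 kb. No share among genes of like length was computed for the 38 genes, so the equal values of 68.4% are not a comparison at like length. By role, 10 of 15 regulators, 3 of 5 kinases and scaffolds, and 13 of 18 genes of the apical matrix, proteases and uptake had a pooled peak. The optimal peak was at nekl-3, a kinase of the molting pathway, with a signal of 98.3 at rank 256 (57.9 in replicate 1 and 40.6 in replicate 2). That summit was 2536 bp upstream of nekl-3 and nearer to F17E5.2, at 242 bp.

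Partners and regulators close to the 9 genes followed below the optimal limit. pan-1, which encodes the transmembrane partner that MYRF proteins need to reach the cell surface, had a pooled signal of 80.4 at rank 424, 2039 bp upstream. It was strong in replicate 2, with 56.3 at rank 227, and weak in replicate 1, with 13.4 at rank 12185. lin-42, the period homolog that times larval development, had a long window of 24.1 kb with 11 pooled peaks, of which 3 were in both replicates. Its strongest had a signal of 79.0, with 30.1 in replicate 1 and 52.1 in replicate 2, but lay 16 bp from the start of the noncoding RNA F47F6.13. Lower still were mlt-10 with 48.2, at a summit 74 bp from lips-7, and the nuclear receptor gene nhr-85 with 46.7. After them came noah-2, a gene of the apical matrix, with 44.0 at a summit 12 bp from its start. The mlt-10 and noah-2 peaks were held by replicate 2 alone, with 30.5 and 43.2. The nhr-85 peak had 25.7 in replicate 2 but was weak in replicate 1, with 14.2 at rank 10371.

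lin-4 encodes the microRNA of larval timing whose transcription MYRF proteins are known to activate. It lies at II, 5902254 to 5902347 on the plus strand, in the RefSeq annotation of the same build. Its window held an optimal peak 402 bp upstream, with a pooled signal of 93.6 at rank 299, directly after the upstream myrf-1 peak. Replicate 1 gave 39.3 at rank 514 and replicate 2 gave 64.7 at rank 152, so in both replicates lin-4 stood above myrf-1. The summit lay in F59G1.4, the protein-coding gene that hosts lin-4 in an intron, and in F59G1.12. The window from 50 bp before to 50 bp after that summit is shown for comparison with the upstream myrf-1 window. It held none of the 4 motifs, so it has no capitals, and its GC content was 66.3%.

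lin-4, upstream summit at chrII:5901802-5901902: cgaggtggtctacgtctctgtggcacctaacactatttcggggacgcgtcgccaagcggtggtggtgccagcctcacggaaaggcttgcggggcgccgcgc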

How the data were processed

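Peak lists on build ce11 were used as deposited. Per the labels, they came from chromatin immunoprecipitation with an antibody against GFP, in 1 group of 2 replicates. No aligner, caller, caller threshold or control treatment is named: these steps are not given in the sources used. Signal and −log10 q-value are the authors' values for each peak, and signal was used only within a list. The files hold no read counts, so depth is unknown. The ce10 lists were not used.

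Genes came from Ensembl release 115 on WBcel235, the same assembly as ce11, and sequence from the RefSeq copy. lin-4 was read from the RefSeq annotation. A summit was linked to every gene whose window held it, and summits within 100 bp were matched between lists. Windows count a gene once, and neighbouring genes can share a peak. The members, the lists of other genes and the motifs were chosen with earlier results of these data known. The text names every member with its peaks, pathway genes with an optimal peak or with the 6 strongest pooled peaks, and any gene whose start was nearer to a described summit; lin-4 was given apart. F59B10.7, F59G1.4, F59G1.12 and F47F6.13 were named for lying at a summit. No test was run. Linking was tested on simulated data. Python 3.11.15, numpy 2.4.6, pandas 2.3.3 and matplotlib 3.10.9 were used. Other windows, matching distances, thresholds and single replicates were tried.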

Additional observations from a re-analysis of the deposited data

How the results depend on the processing

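Of 52 alternatives, 34 left their value close and 18 moved it. For counts, a ratio of up to 1.5 was called close, so a change from 4 to 6 genes was not counted as moved. With 1 replicate's list in place of the pooled one, 6 to 7 of the 9 genes had a peak in place of 4, with 26 to 33 peaks in place of 20, and the share of all genes with a peak was 57.6% to 58.8% in place of 47.0%. The promoter window alone left 5 pooled peaks, of which 4 were in both replicates in place of 7, with 20.1% of all genes having a pooled peak and 1.41% an optimal one. Matching within 50 bp left 4 peaks in both replicates, while 200 bp or any overlap of the regions gave 10, at 4 genes in place of 3. Keeping peaks above each list's median signal left 0 of the 9 genes with an optimal peak in place of 1, since the upstream myrf-1 peak was below the median of the optimal list, with background shares of 29.3% for pooled and 1.52% for optimal peaks. Background shares were 35.0% and 2.06% with 2 kb upstream, 60.9% and 4.76% with 10 kb, and 28.9% and 1.53% when a summit counted for the gene with the nearest start alone, in place of 47.0% and 3.19%. With 10 kb upstream, blmp-1 gained 2 pooled peaks, which made 5 genes with a pooled peak in place of 4. The highest signal, 93.6 at myrf-1, was the same with the promoter alone, with 2 kb and with the nearest start. No paired analysis was possible because there is 1 group. Depth is unknown, and 2 replicates of 1 condition in whole animals give no spread between conditions.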
